A study of Mus musculus with 80 samples.

Results

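*Pax7*, the 4 myogenic regulatory factors *Myf5*, *Myod1*, *Myog* and *Myf6*, and *Mymk*, which encodes the fusion protein Myomaker, were followed by gene symbol and identifier, 6 genes of the 25900 in the expression table. All 6 were present, *Mymk* under its older symbol Tmem8c. Pax7 is the paired-box transcription factor that marks muscle stem cells (MuSCs) and is required for their upkeep. The myogenic regulatory factors are basic helix-loop-helix proteins that bind E-boxes together with E proteins: Myf5 and Myod commit cells to muscle, Myogenin drives differentiation, and Myf6 (Mrf4) is best known from differentiated fibres. Myomaker then allows myocytes to fuse, and Myog and Mymk are normally turned on late, when cells leave the stem cell state.

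MuSCs were sorted by FACS from extraocular muscles (EOM) and *Tibialis anterior* (TA) of 10 *Tg:Pax7-nGFP* donor mice, whose nuclear GFP is driven by *Pax7* regulatory sequence, aged 7.6 weeks in Experiment 1 and 7 weeks in Experiment 2. Of each muscle 500 cells were kept before grafting (pre-graft), and other cells of the same donors were transplanted to the TA, injured beforehand, of *Rag2-/-;γC-/-* hosts, which lack lymphocytes. GFP-positive cells were sorted again on day 21 according to the labels (graft), from as few as 9 cells of EOM and 16 of TA origin. The text of the study gives the time to this sort as a range that includes that day, and elsewhere as a longer time. Polyadenylated RNA was sequenced in 40 libraries, of which the study's quality control passes 30, namely 8 EOM pre-graft, 8 TA pre-graft, 7 EOM graft and 7 TA graft libraries, each of a different donor within its group. All groups carry the transgene, no group holds grafts into EOM or uninjured muscle, and the gate rests on a *Pax7* reporter, so that the level of *Pax7* was not measured independently of the sort.

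The 30 libraries held 3326270 to 14402975 reads each. Values are log2 RPM (reads scaled to a common library size) as deposited, and a library without a read of a gene stands at 0.9 of a read. Mitochondrial genes took 2.96% to 9.18% of the reads on genes in EOM pre-graft, 3.47% to 28.8% in TA pre-graft, 5.59% to 67.6% in EOM graft and 8.73% to 81.1% in TA graft libraries. A gene was called at an adjusted p under 0.05 and a log2 difference beyond 1 in size, by limma fitted to all genes and adjusted over all genes tested. The median log2 difference of all genes tested was -0.30 for TA minus EOM before grafting, -1.09 for TA grafts against TA before grafting, -1.48 for EOM grafts against EOM before grafting and 0.09 for TA minus EOM grafts, and the members are read against these shifts. Ratios between members within a library do not depend on its scaling.

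On GRCm38, *Pax7* (ENSMUSG00000028736) lies on chromosome 4, 139737062 to 139833530, *Myod1* (ENSMUSG00000009471) on chromosome 7, 46376474 to 46379092, *Myog* (ENSMUSG00000026459) on chromosome 1, 134290004 to 134292547, and *Mymk* (ENSMUSG00000009214) on chromosome 2, 27061636 to 27072179. *Myf5* (ENSMUSG00000000435, 107482908 to 107486134) and *Myf6* (ENSMUSG00000035923, 107492860 to 107494729) share chromosome 10 and lie 6725 bases apart on the same strand. None overlaps another gene of GENCODE vM21, so that reads of a neighbour on either strand do not enter these unstranded values. Merged exons measure 5860 bases for *Pax7*, 2083 for *Myf5*, 1861 for *Myod1*, 1495 for *Myog*, 1263 for *Myf6* and 1511 for *Mymk*.

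RefSeq promoter sequences (GRCm38.p6) matched 3 of the 6 members, and the 250 bases before the start of each are shown because Myogenin's promoter is a textbook target of the other factors described here. Capitals mark E-boxes (CANNTG, a palindrome in its fixed letters, so both strands are read at once) and the MEF3 element TCAGGTTTC, searched on both strands.
Myog, chr1:134289754-134290003, plus strand: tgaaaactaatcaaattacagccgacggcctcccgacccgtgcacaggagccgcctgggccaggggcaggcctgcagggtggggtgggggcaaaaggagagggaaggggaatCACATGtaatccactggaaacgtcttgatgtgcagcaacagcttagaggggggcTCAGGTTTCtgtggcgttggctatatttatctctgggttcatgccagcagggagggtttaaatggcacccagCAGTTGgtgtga
Pax7, chr4:139832969-139833218, minus strand: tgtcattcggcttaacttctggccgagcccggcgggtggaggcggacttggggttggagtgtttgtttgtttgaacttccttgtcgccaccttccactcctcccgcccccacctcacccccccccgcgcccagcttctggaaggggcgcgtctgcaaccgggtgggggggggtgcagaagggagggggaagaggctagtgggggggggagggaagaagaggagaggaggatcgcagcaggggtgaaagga
Myf5, chr10:107486135-107486384, minus strand: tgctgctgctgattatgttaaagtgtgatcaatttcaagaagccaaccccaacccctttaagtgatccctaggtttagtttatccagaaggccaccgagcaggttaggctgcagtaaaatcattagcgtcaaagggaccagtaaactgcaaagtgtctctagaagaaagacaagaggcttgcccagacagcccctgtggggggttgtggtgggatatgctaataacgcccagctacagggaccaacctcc

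The window of *Myog* held 2 E-boxes, CACATG 138 to 133 bases and CAGTTG 12 to 7 bases before the start, and 1 MEF3 element 84 to 76 bases before it. The windows of *Pax7* and *Myf5* held neither. CANNTG occurred in 66.2% of the 32851 RefSeq windows of this length and TCAGGTTTC in 0.387%. The E-box forms CAGCTG (13% of windows, a palindrome that is contained in CANNTG) and CAGGTG (17.2%, both strands, likewise contained) and the MEF2 consensus by its strict letters (2.92%) were found in none of the 3, which says only that these letters are not in these windows. The start RefSeq gives for *Pax7* lies 562 bases inside the span of the expression table.

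Before grafting, the stem cell factor and the commitment factors stood high in both muscles and the differentiation genes low or absent. Per length of merged exons, *Myod1* had the highest mean level in TA (552 RPM per kilobase), followed by *Myf5* (431) and *Pax7* (155). In EOM the order was *Myf5* (357 RPM per kilobase), *Myod1* (142) and *Pax7* (67.4). *Myog*, *Myf6* and *Mymk* averaged 18.3, 1.54 and 5.99 RPM per kilobase in TA and 5.21, 5.40 and 2.31 in EOM. The ranges over libraries of *Myf5* and *Myod1* overlapped widely in TA (317 to 572 and 260 to 816 RPM per kilobase). In EOM *Myf5* ranged from 230 to 537 and *Myod1* from 64.6 to 232, which meet only at the edge, and *Pax7* (48.2 to 102) overlapped with *Myod1*.

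*Pax7* had 562 to 1133 reads in the 8 EOM libraries (median log2 RPM 8.48, range 8.14 to 9.22) and 841 to 2699 in the 8 TA libraries (median 9.46, range 9.16 to 10.5). Every TA library but the lowest lay above every EOM library, and TA was higher in 7 of 7 donors with both libraries. *Myod1*, whose product commits activated MuSCs to myogenesis, had 185 to 1150 reads in EOM (median log2 RPM 7.91, range 6.91 to 8.76) and 578 to 2906 in TA (median 10.0, range 8.92 to 10.6). For *Myod1* the muscles did not overlap, as for 0.477% of all genes tested with TA higher and 1.81% with TA lower. *Myf5* had 885 to 2660 reads in EOM (median log2 RPM 9.56, range 8.91 to 10.1) and 464 to 2236 in TA (median 9.77, range 9.37 to 10.2), 2 ranges that largely coincide, and TA was higher in 3 of 7 donors, or in 6 of 7 as a share of reads on nuclear genes.

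The difference, TA minus EOM in log2, was 2.02 for *Myod1* (SE 0.25, adjusted p = 9.83e-06), 1.15 for *Pax7* (SE 0.22, adjusted p = 0.00153) and 0.29 for *Myf5* (SE 0.18, adjusted p = 0.320). Thus 2 of the 6 members were called, both higher in TA, where 4.56% of all genes tested were called, 1.26% higher and 3.31% lower in TA. The split of all genes moved with the scaling, to 1.77% higher and 2.08% lower centred on the library median and 1.87% and 1.45% by edgeR. In 1 fit over all 4 groups, which brings in the wider spread of the grafts, no member was called and the adjusted p was 0.604 for *Pax7* and 0.0841 for *Myod1*. *Pax7* (1.40 in Experiment 1 alone and 1.19 in Experiment 2 alone) and *Myod1* (2.24 and 1.79) were called higher in TA in either experiment alone. For *Myf5* the value moved with scaling and experiment. It was 0.51 without mitochondrial genes (adjusted p = 0.0750), 0.53 centred on the library median (adjusted p = 0.0693), 0.52 by edgeR (adjusted p = 0.0712) and 0.53 by DESeq2 (adjusted p = 0.0179, under the fold needed for a call). *Myf5* was higher in TA in Experiment 1 alone (1.01, adjusted p = 0.00622) and stood at -0.066 in Experiment 2 alone (adjusted p = 0.849), where the median of all genes was -0.40. Whether the experiments differ in the muscle difference of *Pax7*, *Myod1* or *Myf5* was not tested.

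**Figure D1:**
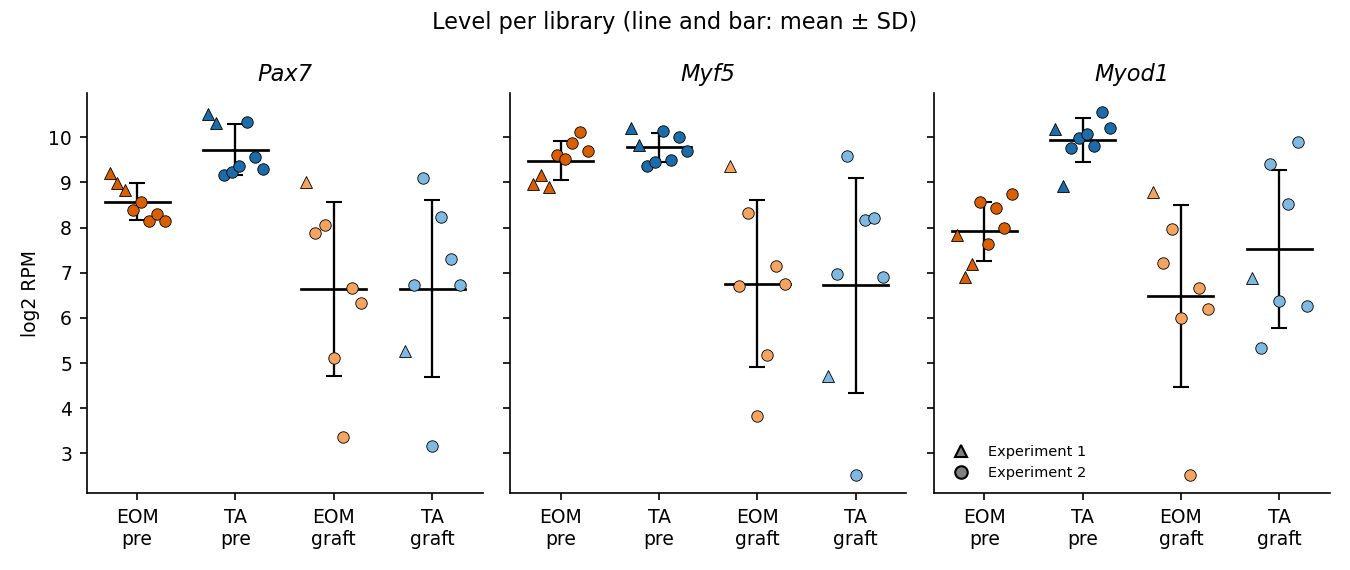
Log2 RPM of *Pax7*, *Myf5* and *Myod1* in each of the 30 libraries, by muscle and stage, with the mean and SD as line and bar and the experiment as symbol. Before grafting *Myod1* separates the muscles without overlap, and after grafting the libraries of each group spread over 5 or more log2 units for *Pax7* and *Myf5*, from 3.17 to 9.11 for *Pax7* in TA grafts.

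Of the 3 ratios between the factors, that of *Myod1* to *Myf5* separated the muscles without overlap, as the level of *Myod1* did. In TA, reads of *Myod1* and *Myf5* were nearly balanced, with a *Myod1* to *Myf5* ratio of 0.534 at the lowest, 1.28 at the median and 1.47 at the highest. In EOM *Myf5* prevailed in 8 of 8 libraries, with ratios from 0.209 over a median of 0.339 to 0.523. The lowest TA library, mouse 4 of Experiment 1, lay just above the highest EOM library, so that the muscles did not overlap.

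The mean log2 ratio of *Myod1* to *Myf5* was 0.16 ± 0.49 (SD, n = 8) in TA and -1.57 ± 0.51 (SD, n = 8) in EOM, a difference of 1.73 (SE 0.25) or 3.32-fold. By exact permutation of the muscle labels, two-sided, p = 0.000155, the smallest that 8 against 8 can give, and adjusted over the 15 ratio comparisons p = 0.00233. Within Experiment 2 the difference was 1.86 (exact permutation p = 0.00217, adjusted p = 0.0162), and in Experiment 1 the mean log2 ratios were -0.47 in 2 TA and -1.70 in 3 EOM libraries, without overlap, a difference that was not tested. Within donors it was higher in TA in 7 of 7, by 1.12 to 2.69. An exact sign-flip test over these donors, the replicate block, gave a mean of 1.74 and p = 0.0156, the smallest possible for 7, and an adjusted p = 0.117.

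The other ratios overlapped between the muscles. *Myf5* over *Pax7* ran from 0.845 to 3.55 in EOM (median 2.12) and from 0.552 to 1.71 in TA (median 1.16), with a log2 difference of -0.86 (SE 0.35, exact permutation p = 0.0291, adjusted p = 0.145). It was lower in TA in 7 of 7 donors. This ratio moved with the experiment: in EOM it averaged 0.999 in the 3 libraries of Experiment 1 and 2.74 in the 5 of Experiment 2 (geometric means), with no overlap, and within Experiment 2 the muscles differed by -1.25 in log2 (exact permutation p = 0.00217, adjusted p = 0.0162). *Myod1* over *Pax7* ran from 0.235 to 1.53 in EOM and from 0.380 to 2.02 in TA, with a difference of 0.87 (SE 0.47, exact permutation p = 0.0842, adjusted p = 0.308). Its geometric means in Experiments 1 and 2 were 0.307 and 0.980 in EOM, where the experiments did not overlap, and 0.551 and 1.49 in TA, where they did. Donor age differs between the experiments as well and cannot be told apart from them.

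**Figure D2:**
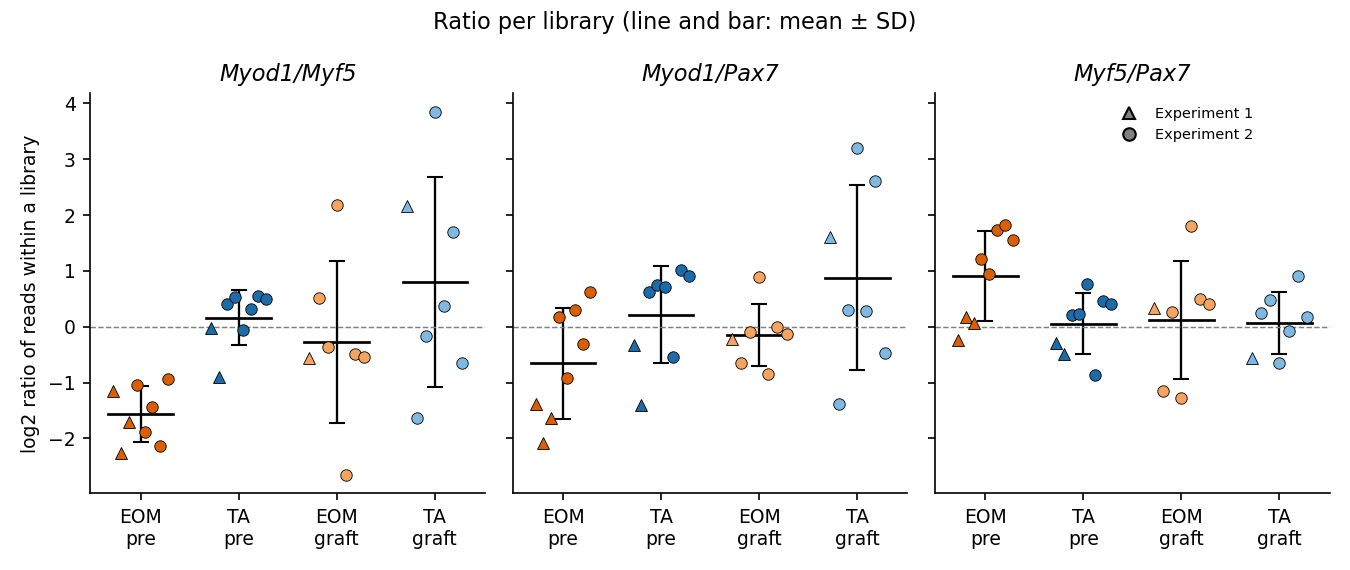
Log2 ratio of reads of 2 members within each library, by muscle and stage, with mean and SD as line and bar and the experiment as symbol; 0 means equal reads. The ratio of *Myod1* to *Myf5* is below 0 in all 8 EOM pre-graft libraries and does not overlap with TA, and after grafting every ratio overlaps between the muscles.

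*Myf6*, the member best known from fibres, was the only one higher in EOM by its value, but at few reads. It had 3 to 29 reads in EOM (median 17, reads in 8 of 8 libraries) and 0 to 9 in TA (median 2.5, reads in 6 of 8). The libraries overlapped. The log2 difference, TA minus EOM, was -2.02 (SE 0.64), with an adjusted p = 0.0570 that misses the threshold. With the donor as replicate block it was -1.998 with an adjusted p = 0.0360, with experiment as covariate -2.11 with an adjusted p = 0.0475, and it also passed without EOM of mouse 4 of Experiment 1 (adjusted p = 0.0412) or TA of mouse 5 of Experiment 2 (adjusted p = 0.0332), while edgeR on recovered reads gave -1.55 with an adjusted p = 0.281.

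*Myog* and *Mymk*, the differentiation and fusion genes, were present in some libraries and absent in others of the same group. *Myog* had reads in 4 of 8 EOM libraries, at 5 to 68, and in 5 of 8 TA libraries, at 20 to 135. *Mymk* had reads in 5 of 8 EOM libraries, at 1 to 28, and in 5 of 8 TA libraries, at 2 to 49. They went together: of the 16 pre-graft libraries, 8 held both and 5 held neither. *Myog* was read in 3 of 3 EOM libraries of Experiment 1 and in 1 of 5 of Experiment 2. Their log2 differences of 1.78 (SE 1.33, adjusted p = 0.4198) and 1.13 (SE 1.06, adjusted p = 0.527) were not called.

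Among the genes that act with these factors, differences before grafting fell in 4 of the 8 lists, to be read beside the 4.56% of all genes called. Of the upstream and co-factors, 3 of 10 tested were called. Among them *Pax3*, the paralog of *Pax7* used in limb myogenesis, was higher in TA by 4.98 (SE 0.69, 0 to 41 reads per EOM library and 10 to 57 in TA). Its EOM mean of -0.56 (SD 1.80) lies near the value of EOM libraries without a read (median -1.24). *Pax3* thus entered the test largely through TA, and its value is a description. The co-activator *Eya2* was lower in TA (-5.37, SE 0.62). None of the 3 E proteins, 4 Id inhibitors, 4 MEF2 factors and 9 tested repressors of myogenic factors was called. Of 7 tested fusion and adhesion genes *Jam2* (3.78, SE 1.05) and *Cdh2* (2.94, SE 0.62) were higher in TA, and of 10 tested early differentiation targets only *Acta1* (2.89, SE 0.75). The value of *Cdh2*, with 0 to 7 reads per EOM library, rests on few reads there. *Cdh2* thus entered the test largely through TA, and its value is a description. Of 18 stem cell genes known to go with *Pax7*, 3 were called, all lower in TA, among them the syndecan *Sdc3* (-3.35, SE 0.68) and *Chrdl2* (-2.28, SE 0.27). The median of this list, -0.30, equals that of all genes tested to the 2 digits given.

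All 8 listed MuSC markers, which include the members *Pax7* and *Myf5*, were read in both pre-graft groups. They summed to 12050 to 15420 RPM in EOM and 10423 to 18256 in TA. Since the sort rested on a *Pax7* reporter, these sums are not an independent check of cell identity. Markers of 12 myofibre genes summed to 27.4 to 108 RPM in EOM and 41.4 to 311 in TA, and 7 endothelial markers to 97.1 to 677 and 15.6 to 1401 RPM. The 7 fibro-adipogenic markers summed to 1985 to 4000.2 RPM in EOM and 1954 to 3626 in TA. Of 7 Schwann or glial markers the sum was 20.8 to 3978 RPM in EOM and 16.6 to 418 in TA, with *Mobp* at 0 in all TA libraries. Lymphocyte markers summed to at most 44.8 RPM in EOM and 6.02 in TA, with *Cd3g*, *Cd8a* and *Nkg7* at 0 in both. Their part in the differences between the muscles was not tested.

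After grafting into TA, *Pax7*, *Myf5* and *Myod1* were read in all 14 libraries, at far more scattered levels. Their mean log2 RPM as deposited was lower in the grafts of both muscles, for *Myod1* in EOM without a call. In TA grafts *Pax7* had 11 to 1066 reads (median log2 RPM 6.73, range 3.17 to 9.11), all below the lowest TA library before grafting. *Myf5* had 7 to 1476 reads (median log2 RPM 6.97, range 2.52 to 9.58) and *Myod1* 64 to 1500 (median 6.88, range 5.34 to 9.90), and these ranges overlapped with those before grafting. Within donors *Pax7* and *Myod1* were lower in 7 of 7 and *Myf5* in 6 of 7.

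The log2 difference, TA graft minus TA pre-graft, was -3.07 for *Pax7* (SE 0.57, adjusted p = 0.000985), -3.06 for *Myf5* (SE 0.65, adjusted p = 0.00246) and -2.42 for *Myod1* (SE 0.52, adjusted p = 0.00266). *Myog* (-3.72, SE 1.11, adjusted p = 0.0152) and *Mymk* (-2.67, SE 0.92, adjusted p = 0.0289) also passed the threshold. Both had no read in any TA graft and entered the test only through the pre-graft libraries, so that their values are a description and not a test. Of the other 4 members 3 were called, all lower, where 34.7% of all genes tested were called, 30.9% lower and 3.79% higher. The excess of lower calls among all genes belongs to the deposited scaling: 7.18% were called lower and 6.93% higher without mitochondrial genes, 5.68% and 7.67% centred on the library median, 3.07% and 5.98% by edgeR and 4.17% and 8.80% by DESeq2. For *Pax7*, groups without overlap and lower in grafts were found for 4.97% of genes, and higher in grafts for 0.214%. *Myf6* changed by -0.92 (SE 0.71, adjusted p = 0.300), close to the median of all genes.

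Less RNA of a gene per cell and fewer cells that carry it cannot be told apart in these bulk libraries. On a scale that leaves out mitochondrial genes, the differences were -2.29 (adjusted p = 0.00239) for *Pax7*, -2.27 (adjusted p = 0.00970) for *Myf5* and -1.63 (adjusted p = 0.0376) for *Myod1*, and *Myog* (adjusted p = 0.0872) and *Mymk* (adjusted p = 0.180) were not called. edgeR on recovered reads kept the call for *Pax7* (-1.74, adjusted p = 0.0186) and not for *Myf5* (-1.43, adjusted p = 0.0799) or *Myod1* (-0.96, adjusted p = 0.244). DESeq2 on these reads called *Pax7* (-1.66, adjusted p = 0.00195) and *Myf5* (-1.37, adjusted p = 0.0373) and not *Myod1* (-0.89, adjusted p = 0.228). *Mymk* lost its call without TA of mouse 3 or 4 of Experiment 1 or of mouse 3 or 5 of Experiment 2 before grafting, with adjusted p between 0.050009 and 0.0604.

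In EOM grafts *Pax7* had 18 to 1100 reads (median log2 RPM 6.67, range 3.37 to 9.02), *Myf5* 21 to 1393 (median 6.75, range 3.83 to 9.36) and *Myod1* 10 to 945 (median 6.67, range 2.52 to 8.80). The graft of mouse 4 of Experiment 1 was the highest of the grafts for all 3 and within or above the range before grafting. In log2 RPM the groups overlapped for *Pax7*, *Myf5* and *Myod1* and not for *Myf6*, which went from 3 to 29 reads before grafting to reads in 2 of 7 grafts, 4 and 1. As a share of reads on nuclear genes *Myf6* overlapped too. Mouse 4 of Experiment 1 stood at 0.000155% in its graft and at 0.000140% before grafting.

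The log2 difference, EOM graft minus EOM pre-graft, was -2.72 for *Myf5* (SE 0.56, adjusted p = 0.00104) and -1.94 for *Pax7* (SE 0.58, adjusted p = 0.00908). *Myf6* differed by -3.07 (SE 0.60, adjusted p = 0.000794), but no EOM graft reached a log2 RPM of 1 for it, so that it entered only through the pre-graft libraries and its value is a description. Of the other 5 members 2 were called, both lower, where 59.3% of all genes tested were called, 55.8% lower and 3.51% higher. Here too the split moved with the scaling, to 7.04% lower and 5.64% higher without mitochondrial genes, 4.84% and 6.65% centred on the library median and 2.90% and 6.93% by edgeR. Non-overlapping groups with the grafts lower were found for 11.1% of genes, and with the grafts higher for 0.176%. *Myod1* differed by -1.43 (SE 0.62, adjusted p = 0.0508), 0.05 above the median of all genes. It passed the threshold in some other settings, with log2 of RPM plus 1 (adjusted p = 0.0456), the stricter filter (0.0474), 1 fit over 4 groups (0.0463), Experiment 2 alone (-2.18, adjusted p = 0.0171) and all libraries (-1.56, adjusted p = 0.00532). Without the graft of mouse 4 of Experiment 2 the difference was -0.77 (adjusted p = 0.110). It passed without the graft of mouse 4 of Experiment 1 (-1.82, adjusted p = 0.0124), of mouse 1 or 2 of Experiment 2, or without EOM of mouse 4 or 5 of Experiment 1 before grafting (adjusted p between 0.0279 and 0.0499915 for these 4).

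*Pax7* and *Myod1* in EOM changed with the scaling. Leaving mitochondrial genes out, *Pax7* differed by -0.87 (adjusted p = 0.202), *Myod1* by -0.37 (adjusted p = 0.663) and *Myf5* by -1.66 (adjusted p = 0.0236). By edgeR the differences were -0.43 (adjusted p = 0.584) for *Pax7*, 0.044 (adjusted p = 0.965) for *Myod1* and -1.14 (adjusted p = 0.0932) for *Myf5*. *Myf6* had 130 reads in all before grafting and 5 after. As a share of reads on nuclear genes, the median of *Pax7* was 0.0262% before and 0.0230% after grafting in EOM, and 0.0611% and 0.0148% in TA. Within donors *Pax7* was higher in the EOM graft in 4 of 6 by this share and in 1 of 6 by log2 RPM. The median share of *Myf5* was 0.0551% and 0.0178% in EOM and 0.0759% and 0.0176% in TA, and that of *Myod1* 0.0167% and 0.0153% in EOM and 0.0895% and 0.0393% in TA.

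**Figure D3:**
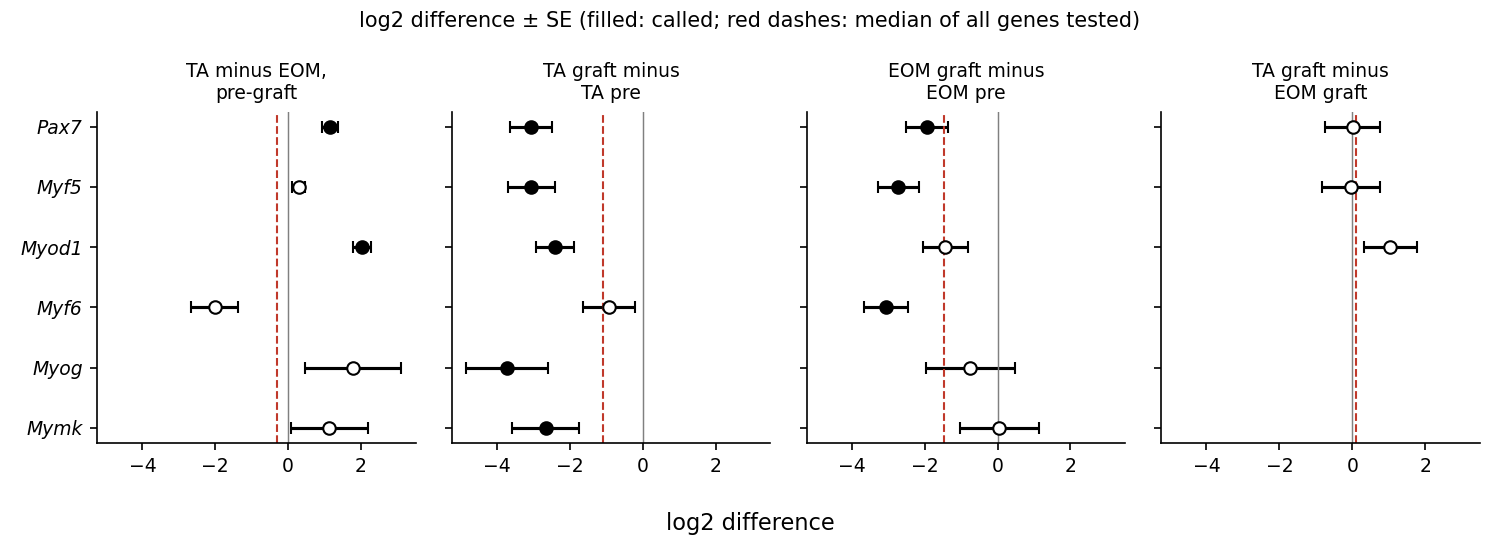
Log2 difference ± SE of the 6 members in the 4 comparisons of groups by limma, with filled points for members past the threshold (*Myog* and *Mymk* in TA grafts and *Myf6* in EOM grafts entered only through the pre-graft libraries), a grey line at 0 and red dashes at the median of all genes tested. Before grafting *Pax7* and *Myod1* lie to the right of both lines; in EOM grafts *Myod1* lies on the median of all genes. *Myf6*, *Myog* and *Mymk* have no point for TA minus EOM grafts, since they did not pass the filter on low values there.

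*Myog* and *Mymk* were not detected in TA grafts. Neither had a read in 7 of 7 libraries, which allows 3 reads each or a mean of 1.78 RPM. Set against that limit in each library, mean RPM as deposited was at least 15.3-fold higher before grafting for *Myog* and at least 5.07-fold for *Mymk*. These bounds hold on the deposited scaling only, in which mitochondrial genes took up to 81.1% of the reads on genes in TA grafts. Bounds on shares of reads on nuclear genes would be lower and were not computed. The bounds also cover the counting of reads only. By the labels TA grafts came from 16 to 67 cells, against 500 before grafting. Rare cells with these RNAs can be missed among so few, which the bounds leave out. Of the 8 TA libraries before grafting, 3 also had no read of either. In EOM grafts 1 library, mouse 4 of Experiment 1, held 198 reads of *Myog* and 190 of *Mymk*, more than any pre-graft library. In the other 6 EOM grafts *Myog* had no read, and *Mymk* had 6 reads in 1 library. Their differences from EOM before grafting were -0.75 (SE 1.22, adjusted p = 0.590) and 0.05 (SE 1.08, adjusted p = 0.969). Without that graft they were -1.79 and -0.92, and without EOM of mouse 3 of Experiment 1 before grafting -0.16 and 0.52.

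**Figure D4:**
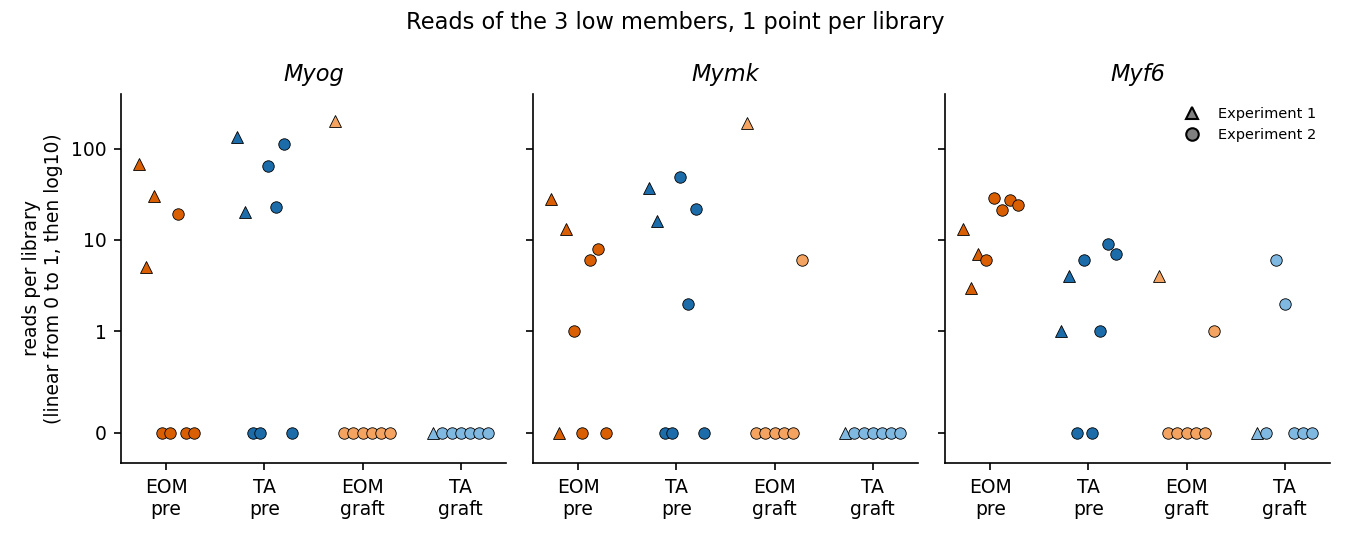
Reads of *Myog*, *Mymk* and *Myf6* per library, by muscle and stage, 1 point per library with the experiment as symbol, on an axis that is linear from 0 to 1 and logarithmic above. All 7 TA grafts lie at 0 for *Myog* and *Mymk*, and among EOM grafts 1 library of Experiment 1 stands at 198 and 190 reads.

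Over all 30 libraries *Myog* was read in 10 and *Mymk* in 12, both in 9. Centred on each library's median, their levels correlated at Pearson's r = 0.88 across the 30 libraries, a description in which shared zeros, shared depth and differences between the pooled groups enter. *Myf6* did not follow them (r = -0.07 with *Myog* and -0.05 with *Mymk*) and had reads in 18 libraries. *Pax7* and *Myf5* correlated at 0.83, *Pax7* and *Myod1* at 0.66 and *Myf5* and *Myod1* at 0.52, with the same caution.

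In the grafts none of the 3 members tested, *Pax7*, *Myf5* and *Myod1*, was called between the 2 origins, and the other 3 did not pass the filter on low values. TA minus EOM grafts differed by 0.01 for *Pax7* (SE 0.75), -0.04 for *Myf5* (SE 0.79) and 1.04 for *Myod1* (SE 0.72), each with an adjusted p of 1.00, and limma called 0% of all genes tested (452 genes at an unadjusted p under 0.05; edgeR called 0 and DESeq2 3). With SEs of this size, a difference of 1 log2 unit in either direction could not be detected. Of the 6 donors with both grafts, the TA graft was higher in 5 for *Myod1*, in 5 for *Myf5*, against the sign of its mean difference, and in 4 for *Pax7*. As a share of reads on nuclear genes it was higher in 4 for *Myod1*, in 4 for *Myf5* and in 2 for *Pax7*.

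The ratios of the factors, set by the reads of each library alone, overlapped between the origins, also that of *Myod1* to *Myf5*, which had not before grafting. *Myod1* over *Myf5* ran from 0.159 to 4.52 in EOM grafts (median 0.713) and from 0.322 to 14.4 in TA grafts (median 1.29), with mean log2 ratios of -0.27 ± 1.44 (SD, n = 7) and 0.80 ± 1.88 (SD, n = 7). The extremes are thin: the TA graft of mouse 3 of Experiment 2, with 81.1% mitochondrial reads, had 101 reads of *Myod1* and 7 of *Myf5*. The difference of 1.08 (SE 0.89) had an exact permutation p = 0.251 (adjusted p = 0.421). In EOM the ratio was higher after grafting by 1.29 in log2 (SE 0.57, exact permutation p = 0.0252, adjusted p = 0.145), in 5 of 6 donors. The exception, mouse 4 of Experiment 2, had 10 reads of *Myod1* and 63 of *Myf5* in its graft, and without that library the difference was 1.69 (exact permutation, adjusted p = 0.00250). Leaving out any other library gave no adjusted p under 0.05 (up to 0.2875, exact permutation), with the lowest difference, 0.88, without the graft of mouse 3 of Experiment 2.

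In TA the ratio of *Myod1* to *Myf5* differed by 0.64 on grafting (SE 0.73, exact permutation p = 0.386), higher in 4 of 7 donors. The change in EOM minus that in TA was 0.44 (SE 0.91, exact permutation p = 0.653 over donor changes, adjusted p = 0.754). *Myf5* over *Pax7* changed by -0.78 in EOM (SE 0.49, exact permutation p = 0.129) and by 0.02 in TA (SE 0.29, exact permutation p = 0.946). *Myod1* over *Pax7* changed by 0.51 in EOM (SE 0.41, exact permutation p = 0.253) and by 0.66 in TA (SE 0.70, exact permutation p = 0.343). Of the 15 ratio comparisons only that of *Myod1* to *Myf5* before grafting had an adjusted p under 0.05 with the 30 libraries, and 3 others passed in some other settings.

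The change on grafting was also compared between the muscles. Change in EOM minus change in TA was 1.14 for *Pax7* (SE 0.87, adjusted p = 0.828), 0.33 for *Myf5* (SE 0.93, adjusted p = 0.961) and 0.99 for *Myod1* (SE 0.86, adjusted p = 0.851). For the low members it was 2.98 for *Myog* (SE 1.73, adjusted p = 0.741), 2.72 for *Mymk* (SE 1.46, adjusted p = 0.724) and -2.15 for *Myf6* (SE 0.89, adjusted p = 0.599). None of the 6 was called by limma, where 0.208% of all genes were, 0.0554% higher and 0.152% lower. In this fit *Myf6* had an unadjusted p of 0.0205 and the other members had p above 0.05, while on levels centred on the library median *Pax7* (0.0285) and *Mymk* (0.0385) were under 0.05 before adjustment. DESeq2 called *Myog* and *Mymk*, both without a read in TA grafts. Thus the different lists of members called in the 2 muscles do not show that the muscles responded differently.

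Genes listed as working with the members are given beside all genes tested, of which 30.9% were called lower in TA grafts and 55.8% in EOM grafts under the deposited scaling, to which the counts and shares here belong. Of the 18 stem cell genes known to go with *Pax7*, 13 were lower in TA grafts and 16 in EOM grafts, and none was higher, with list medians that stood at -1.24 and -0.52 relative to the median of all genes tested. *Chrdl2* (-4.80, SE 0.77 in TA and -6.02, SE 0.68 in EOM) and the FGF receptor *Fgfr4* (-4.26, SE 0.88 and -3.33, SE 0.72) changed most. Of the upstream and co-factors 7 of 10 were lower in TA grafts and 6 of 9 in EOM grafts, the latter near the share of all genes. The list medians stood at -1.46 and -1.14 relative to all genes. Those lower included *Pitx3* in both (-4.84, SE 0.73 in TA and -3.35, SE 0.76 in EOM) and *Eya2* in EOM (-4.54, SE 0.73). *Pitx3* had 0 to 1 reads in TA grafts, so that it entered there only through the pre-graft libraries. Its TA value is a description, though counted among the 7.

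The repressor *Msc* (musculin) differed by -5.76 (SE 0.95) in TA and -3.94 (SE 0.82) in EOM, and the Notch target *Heyl* differed by -2.57 (SE 0.40) and -2.62 (SE 0.34). Of the repressors of myogenic factors tested, 3 of 8 were lower in TA grafts and 4 of 10 in EOM grafts, near and below the share of all genes, with list medians at -0.0020 and 0.28 relative to all genes. Of the Id inhibitors 3 of 4 were lower in TA grafts and 1 of 4 in EOM grafts, with list medians at -0.41 and 0.71 relative to all genes, and *Id3* was lower in both (-1.69, SE 0.39 and -1.29, SE 0.28). Of 3 E protein genes *Tcf3* was lower in both (-2.17, SE 0.51 and -1.74, SE 0.70), with list medians at 0.47 and 0.50 relative to all genes. Of the MEF2 factors 1 was higher and 1 lower in each muscle, of 3 tested in TA and 4 in EOM, with list medians at 1.79 and 0.84 relative to all genes. The lower ones were *Mef2d* in TA grafts (-1.26, SE 0.37) and *Mef2b* in EOM grafts (-1.69, SE 0.67). *Mef2b* had 0 to 2 reads in EOM grafts, so that it entered only through the pre-graft libraries and its value is a description. *Mef2c*, a MADS-box partner of the myogenic factors that endothelial cells express too, was higher in both (3.57, SE 0.90 and 4.38, SE 1.05). Of 7 tested fusion and adhesion genes, 1 was higher and 2 lower in TA grafts and 2 were higher and 3 lower in EOM grafts. *Cdh2*, counted among those higher in EOM grafts, had 0 to 7 reads per EOM library before grafting. It entered largely through the grafts, so that its place in this count is a description. The list medians stood at 0.22 and 0.071 relative to all genes. *Jam2* was higher in both (2.78, SE 0.55 and 4.57, SE 1.39), while *Cdh15*, the cadherin of MuSCs, was lower (-4.08, SE 0.71 and -3.16, SE 0.87). Of 10 tested early differentiation targets, none was higher and 4 lower in TA grafts, among them *Chrna1* (-5.62, SE 0.87). In EOM grafts 2 were higher, *Ckm* (3.99, SE 1.06) and *Acta1* (3.58, SE 0.83), both abundant in fibres, and 5 lower, among them *Myl4* (-3.39, SE 0.77). The medians of these targets stood at 0.068 in TA and 0.88 in EOM relative to all genes.

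Summed levels of cell markers are given for both stages. The 8 MuSC markers summed to a median of 13743 RPM in EOM and 14026 in TA before grafting and to 3602 (range 1083 to 11503) and 2902 (range 180 to 8326) after it. These sums include the members *Pax7* and *Myf5* and are not independent of them. The 12 myofibre markers had median sums of 50.8 RPM before and 477 after grafting in EOM and of 157 and 515 in TA, with *Myh7* at 0 in all TA grafts. The 7 endothelial markers had median sums of 218 RPM before and 1445 after grafting in EOM and 338 and 2158 in TA, and the 6 pericyte and smooth muscle markers 1020 and 2067 in EOM and 1208 and 2964 in TA. The 5 erythroid markers had median sums of 1.72 RPM before (range 0 to 5542) and 7629 after grafting (range 0.855 to 9651) in EOM and of 0.820 (range 0 to 13979) and 5.10 (range 0 to 3824) in TA. The 7 fibro-adipogenic markers had median sums of 3069 RPM before and 1873 after grafting in EOM (up to 11883 in 1 graft) and of 2267 and 2448 in TA. The 7 Schwann or glial markers had medians of 669 and 49.1 RPM in EOM and 21.2 and 7.58 in TA. The 10 macrophage markers had medians of 39.6 RPM before (range 22.3 to 2607) and 42.0 after grafting (range 1.72 to 684) in EOM, and 27.9 (range 6.55 to 39.8) and 30.8 (range 12.3 to 56.3) in TA, with *C1qa* at 0 in TA at both stages. Their part in the differences of the members on grafting, and that of the mitochondrial share, was not tested.

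Some genes followed single members closely across the 30 libraries, given as a description over points that share library and depth. All 4 groups are pooled, so that a difference between groups shared by a gene and a member also raises r. Values of r are on levels centred on each library's median, with r on uncentred levels after it. With *Pax7* these were *Chodl* (r = 0.88, uncentred 0.94), *Mt2* (0.88, uncentred 0.95) and *Jsrp1* (0.87, uncentred 0.93). With *Myf5* they were the syndecan *Sdc4* (0.92, uncentred 0.96), *Chodl* (0.90, uncentred 0.95) and *Hsd11b1* (0.90, uncentred 0.95). For *Myod1* the highest were *Lpar1* (0.79, uncentred 0.86), *Rad18* (0.76, uncentred 0.85) and *Asb5* (0.76, uncentred 0.84). For *Myf6*, with reads in 18 libraries, they were *Ctf1* (0.74, uncentred 0.82), *Ddc* (0.73, uncentred 0.80) and *Flywch2* (0.72, uncentred 0.84), of 11449 genes ranked.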

How the data were processed

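RNA was sequenced in 40 libraries, and methylation libraries of the same cells were not used here. Per the submitters' processing notes, reads were trimmed with Trim Galore and aligned to GRCm38 with HISAT2 2.1.0; the study's methods give Trim Galore 0.4.4 for the RNA reads. The authors deposited log2 RPM values per gene, summed over both strands, in which a gene without a read stands at 0.9 of a read, and quality tables with the total read count and the percent of reads in genes, exons and mitochondrial DNA. The gene annotation release is not given in the sources used here. Whole reads were recovered from the deposited log2 values (99.993% of values were whole within 0.02 of a read), and 1 row per gene was kept, 25900 of 25965. The scaling corresponds to 19.1% to 22.7% of the total reads of a library.

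The 30 libraries on the study's quality list were used. Of the 31 that pass its thresholds (500000 reads, 70% in genes, 65% in exons), the study leaves 1 out as an outlier. Levels were compared with limma 3.58.1 in R 4.3.3 (trend), separately for each pair of groups, over genes with 4 or more libraries above a log2 RPM of 1, with Benjamini-Hochberg adjustment over all genes tested. Log2 ratios of reads were compared by exact two-sided permutation tests, adjusted over 15 comparisons. Groups were taken from the labels. Each library is of a separate donor in its group, and libraries of a donor are paired across groups because they come from the same mouse (median correlation of same-donor deviations 0.07 before grafting). The alternatives were other filters, scalings, pseudocounts and library selections, edgeR 4.0.16 and DESeq2 1.42.0 on recovered reads, experiment as covariate, a replicate block by donor, and leaving out each library. Of these fits, the limma step alone was tested on simulated data. Members and gene lists were chosen with earlier results of these data known. Named are all members, of each list at most the 2 genes called with the largest difference in each direction, and the 3 genes most correlated with a member read in at least 15 libraries. Some genes that this rule or the marker lists name are not reported here. Low read counts limit the precision for *Myog*, *Myf6* and *Mymk*, and limits from counts of 0 cover counting error only.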

Additional observations from a re-analysis of the deposited data

Results flagged for a closer look

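The EOM graft of mouse 4 of Experiment 1 lay far from the other 6 EOM grafts for the 3 low members by Dixon's test of the gap to the nearest value: *Myog* stood at 6.543 log2 RPM (next -0.34), *Mymk* at 6.484 (next 1.65) and *Myf6* at 0.9141 (next -0.34). The value of -0.34 is that of a library without a read, set by its depth at 0.9 of a read, so that the gaps of *Myog* and of *Myf6*, with 4 reads in the outlying library, are measured from that floor. It is the only passing EOM graft of Experiment 1, and by the labels it came from more cells than any other passing EOM graft. Experiment, cell number and library cannot be told apart here. Among TA libraries before grafting, mouse 4 of Experiment 1 had the lowest log2 ratio of *Myod1* to *Myf5*, -0.9055 (next -0.06). Of 34 groups tested 4 were picked out, 3 of them through the same EOM graft. The chance rate of the test, about 1 in 20, is for independent groups of normal values. Groups that share libraries or lie at the floor are not such groups, so that the count cannot be judged against this rate.

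EOM grafts outside the study's quality list, all of Experiment 1, also had reads of the low members. The graft of mouse 5 held 171 reads of *Myog* and 70 of *Mymk*, that of mouse 1 held 7 of *Mymk* and 5 of *Myf6*, and that of mouse 3 held 22 of *Myf6*.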

How the results depend on the processing

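Before grafting, the number of members called was 0 in 1 fit over 4 groups, and *Myf5* stood at -0.066 in Experiment 2 alone. On grafting, 3 members were called in TA under the stricter filter and in Experiment 2 alone, where *Myog* and *Mymk* were not tested, without mitochondrial genes and centred on the library median (*Pax7*, *Myf5* and *Myod1* in these 4), and by edgeR (*Pax7*, *Myog* and *Mymk*), and 1 in EOM by edgeR and DESeq2, namely *Myf6*, which like *Myog* and *Mymk* in TA entered only through the pre-graft libraries, so that edgeR and DESeq2 called no other member in EOM. DESeq2 called 2 interactions. In EOM, *Myod1* turned to 0.044 by edgeR and 0.10 by DESeq2, *Myog* to 0.45 with experiment as covariate, 0.32 without mitochondrial genes, 0.50 centred and 1.02 by edgeR, and *Mymk* to -0.21 with log2 of RPM plus 1, -0.38 with all libraries, -1.33 by DESeq2 and -0.92 to 0.52 on leaving out 1 library. Between grafts, *Pax7* turned to -0.12 with all libraries, -0.046 without mitochondrial genes, -0.10 centred and -0.53 to 0.59 on leaving out 1 library, and *Myf5* to 0.031 with the replicate block, 0.73 in Experiment 2 alone, 0.28 by edgeR, 0.23 by DESeq2 and -0.53 to 0.66 on leaving out 1 library. The interaction of *Myf5* was -0.79 in Experiment 2 alone and -0.37 to 0.82 on leaving out 1 library.

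The log2 ratio of *Myod1* to *Pax7* changed by -0.36 in TA by medians, by -0.11 in EOM in Experiment 2 alone, and its interaction was 0.20 without libraries under 50 reads (chosen after seeing the data, as was Experiment 1 alone). That of *Myod1* to *Myf5* differed before grafting by 1.74 with the replicate block, and changed in EOM by 1.25 with all libraries and 1.28 without libraries under 50 reads, both past the threshold, and by 0.88 to 1.69 on leaving out 1 library. That of *Myf5* to *Pax7* differed before grafting by -1.18 with all libraries and -1.25 in Experiment 2 alone, both past the threshold, changed in TA by -0.024 in Experiment 2 alone, -0.058 with the replicate block, -0.040 by medians and -0.12 to 0.14 on leaving out 1 library, and differed between grafts by 0.083 with all libraries, 0.088 in Experiment 2 alone and with the replicate block, 0.12 without libraries under 50 reads and -0.29 to 0.23 on leaving out 1 library. Its interaction was -1.35 with all libraries, past the threshold. The cause of these shifts was not tested.

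Over all settings other than leaving out a library, 266 values of single members and 74 of ratios kept direction and side of the threshold, 18 and 10 turned direction, 16 and 1 lost a call and 10 and 5 gained one. The replicate block changed no call other than those of *Myf6* and of the *Myod1* to *Myf5* ratio before grafting. Grafts of few cells, with as few as 7 reads of *Myf5*, limit all post-graft ratios.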
